A study of Mus musculus with 6 samples.

Results

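Pyruvate is where glycolysis ends and where its carbon can leave in several directions. The 10 genes described here are Pkm, which encodes the pyruvate kinase that makes pyruvate, and 9 genes whose products reduce it to lactate (Ldha, Ldhb), carry it into mitochondria (Mpc1, Mpc2), oxidize it to acetyl-CoA (Pdha1, Pdhb), restrain that oxidation (Pdk1, Pdk3) or carboxylate it to oxaloacetate (Pcx). They were chosen by name, as rows of the expression table whose Ensembl identifier carries one of these symbols, and all 10 were found among 23504 rows. The libraries came from bone marrow-derived macrophages (BMMs) of C57BL/6 mice, 3 treated with DMSO and 3 treated with DASA-58, and RNA was taken on day 3. DASA-58 is a small-molecule activator of PKM2, the pyruvate kinase isoform that Pkm mainly encodes in macrophages, which it holds in its tetrameric form. The study's results say that RANKL, the cytokine that turns BMMs into osteoclasts, was given to both groups, whereas the wording of its methods does not settle whether the DMSO cells received it. The methods also write DASA-48 where the sample labels write DASA-58, and no concentration is given for the sequenced cells. The methods name male mice of 6 to 8 weeks, and nothing says whether libraries of a group came from separate cultures or animals, so p-values measure only the spread between these samples.

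In macrophages and in cells becoming osteoclasts, glycolysis and mitochondrial respiration are both in use, and pyruvate links them. Pyruvate kinase M has a pair of main isoforms made from the same gene by splicing: PKM1 is always tetrameric and active, and PKM2 switches between a tetramer with high activity and forms with low activity. A drug that binds PKM2 acts on the protein, and RNA-seq measures the transcripts of the genes, not the flow of pyruvate.

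The values were FPKM, fragments normalized to the length of a gene's annotated exons and to the fragments counted per library. Whole fragments recovered from these values gave depths between 18191560 and 18968556. Groups were compared with limma on log2(FPKM + 1), a scale that understates the changes of genes with few FPKM, over the 10965 genes that averaged 1 FPKM or more. A gene was called at an adjusted p under 0.05 (Benjamini-Hochberg over all genes tested), which gave 798 genes lower and 465 higher with DASA-58. Centring the libraries on their medians turned this balance to 504 lower and 597 higher. All 8 macrophage markers were above the filter, with summed levels of 16412 to 17255 FPKM with DMSO and 17342 to 19651 FPKM with DASA-58, of which Lyz2 made up most, and 1 of the 8 was called lower and 3 higher. Of the 10 osteoclast markers 9 were above the filter and all 9 were lower, and their sum was 778 to 833 FPKM with DMSO and 449 to 467 FPKM with DASA-58. The 8 neutrophil markers summed to 174 to 177 FPKM with DMSO and 137 to 143 FPKM with DASA-58, and 4 of the 7 tested were lower. Of the stromal, T and NK cell and B cell markers 6 were tested and 0 were called, and Alas2, the only erythroid marker with a row, averaged 0.052 FPKM. Every value below comes from this mixture of cells, in which fewer cells of a type and less RNA per cell cannot be told apart. The shift of the osteoclast and neutrophil markers moved with the treatment, and its part in the results below was not tested.

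Of the 10 genes, 1 was called lower with DASA-58 (Pdhb) and 1 higher (Pcx), and 8 were not called. Over all genes tested, 7.28% were called lower and 4.24% higher, 11.5% in either direction. The libraries of the groups did not overlap for 5 of the 10 genes, where 33.4% of all genes tested showed no overlap. Those 5 were Ldha, Mpc2 and Pdhb, lower in every DASA-58 library, and Mpc1 and Pcx, higher in every DASA-58 library. The median log2 fold change of the 10 was -0.05, beside -0.03 for all genes tested. For each of these 5 genes the two-sided exact permutation test gave p = 0.1, the smallest value possible with 3 libraries per group.

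**Figure D1:**
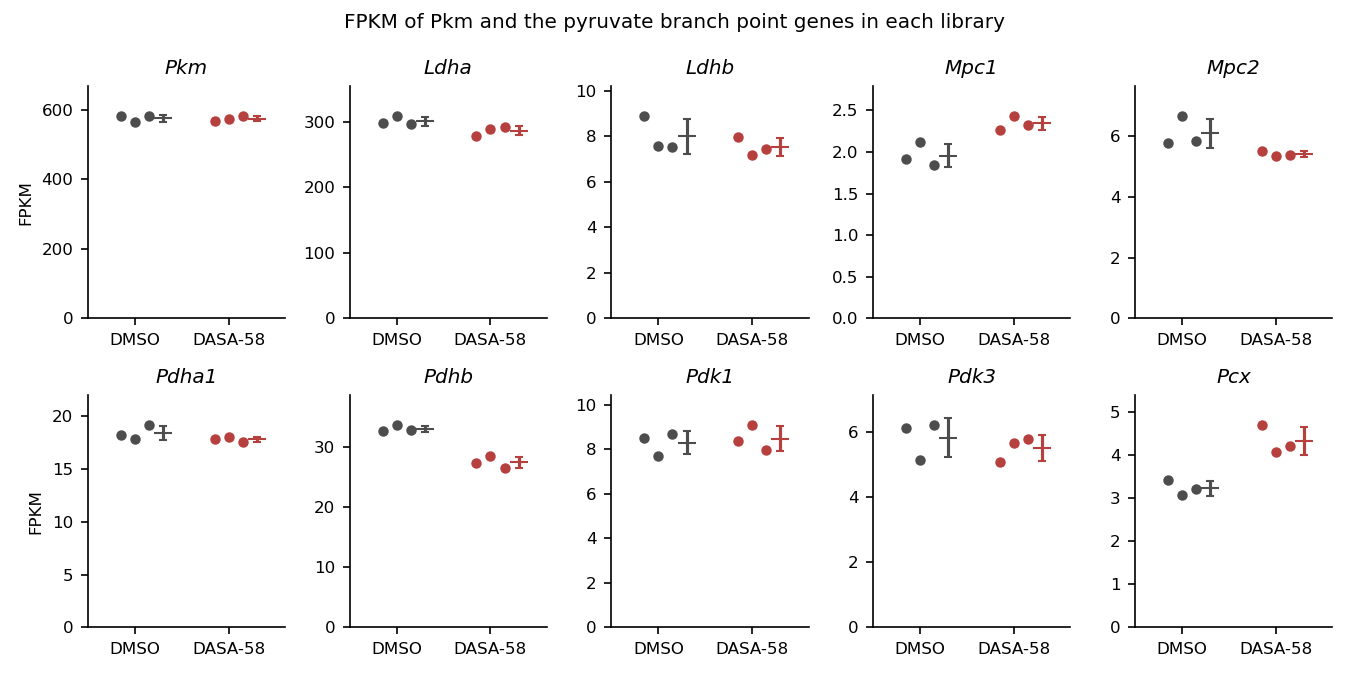
FPKM of each of the 10 genes (vertical axes, each from 0) in the 3 DMSO libraries (grey) and the 3 DASA-58 libraries (red); points are libraries, and the bar and whiskers beside them are the mean and SD. Pdhb is lower and Pcx higher in every DASA-58 library, and the Pkm points of both groups lie between 564 and 581 FPKM.

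Pkm (ENSMUSG00000032294, GRCm38 chr9:59656368-59679375, plus strand) encodes the target of the drug, and its level was the same in both groups to within a few percent. It was at 581, 564 and 581 FPKM in DMSO replicates 1, 2 and 3, and at 569, 574 and 581 FPKM in DASA-58 replicates 1, 2 and 3. The ranges overlapped over most of their width, with DASA-58 replicate 3 just above the highest DMSO library, and with means of 575 ± 9.70 and 575 ± 6.09 FPKM (SD, n = 3 each). The log2 fold change was -0.0007 with a 95% interval of -0.06 to 0.05, which on the FPKM + 1 scale is 96.2% to 104% of DMSO (limma, adjusted p = 0.99). The sign of so small a difference turned with quantile normalization (0.04), centring on the median (0.03) and a trimmed mean of log ratios (0.02). Pkm was read from 52261 to 55132 fragments per library, so counting error was under 1 percent. The interval rests on the spread between libraries, which limma shrinks toward a trend over all genes tested.

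Pkm also varied less between libraries than most genes of 10 FPKM or more. The SD of its log2 value over all 6 libraries was 0.02, where the median over the 4868 such genes was 0.07. That median includes genes with fewer fragments, and so more counting error, and genes that differed between the groups. Pkm was not compared with genes of its own level alone, so the low spread is not shown to be particular to it. Pkm held 0.158% to 0.166% of all FPKM in a library and ranked at position 65 in the table. The genes with the most similar course over the 6 libraries, among 4867 others, were Chmp2b (Pearson r = 0.97), Mcfd2 (0.95), Chmp5 (0.95), Dsn1 (0.94) and Ptges3-ps (0.93). Chmp2b and Chmp5 encode subunits of the ESCRT-III membrane scission machinery, Mcfd2 a cargo receptor subunit of the early secretory pathway, and Dsn1 a kinetochore protein. All values of a library share its normalization, and with 6 libraries and a Pkm range of a few percent these correlations describe small fluctuations and carry no p.

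What separates PKM1 from PKM2 is a single internal exon, and it is shown here because a gene-level value cannot tell the isoforms apart. In GENCODE M21 (GRCm38), 8 exons are identical in transcripts Pkm-202 (PKM1) and Pkm-201 (PKM2), and exon 9 of 11 is taken from chr9:59675029-59675195 in PKM1 and from chr9:59675568-59675734 in PKM2, both on the plus strand. The exons have the same length of 167 bases and are 61.7% identical. The 64 positions at which they differ are in capitals, 5′ to 3′.
PKM1 exon: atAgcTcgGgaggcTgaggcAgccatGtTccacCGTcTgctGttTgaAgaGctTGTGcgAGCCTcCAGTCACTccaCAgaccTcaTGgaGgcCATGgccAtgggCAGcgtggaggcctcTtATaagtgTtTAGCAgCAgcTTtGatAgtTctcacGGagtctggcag
PKM2 exon: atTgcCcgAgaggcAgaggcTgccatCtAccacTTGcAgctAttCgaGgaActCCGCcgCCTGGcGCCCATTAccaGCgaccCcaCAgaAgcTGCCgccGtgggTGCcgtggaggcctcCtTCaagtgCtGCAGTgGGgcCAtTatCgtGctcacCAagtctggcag
The deposited row sums fragments over all 11 annotated Pkm transcripts, so the 575 FPKM stand for PKM1 and PKM2 together. How the total divided between these exons was not analysed here. A processed pseudogene of Pkm, Gm6560, is 94.99% identical to it over 1598 bases and stood at 15.1 ± 0.782 FPKM in the DMSO group and 16.0 ± 0.616 FPKM in the DASA-58 group. Gm49759, an unverified gene model on the same strand inside Pkm, averaged 12.9 FPKM.

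The lactate dehydrogenase genes followed. Ldha (ENSMUSG00000063229, chr7:46841475-46855627) encodes the subunit that favours the reduction of pyruvate to lactate. It was at 298, 308 and 296 FPKM with DMSO and at 278, 288 and 292 FPKM with DASA-58. The 3 DASA-58 values were all below the 3 DMSO values, by a mean of about 5 percent, and the gene was not called. Its log2 fold change was -0.07 ± 0.029 (SE, n = 3 against 3; limma, adjusted p = 0.16), with an interval of 90.9% to 99.7% of DMSO on the FPKM + 1 scale. It was called with equal library totals (adjusted p = 0.0496) and with voom weights on the recovered fragments (adjusted p = 0.034).

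Ldhb (ENSMUSG00000030246, chr6:142490249-142507957), the subunit that favours the reverse reaction, was much lower than Ldha, at 8.89, 7.57 and 7.56 FPKM with DMSO and 7.98, 7.18 and 7.45 FPKM with DASA-58. The ranges overlapped, and the log2 fold change of -0.07 had an interval of 85.2% to 106% of DMSO (limma, adjusted p = 0.53). It was -0.005 without DMSO replicate 1, the highest library, and -0.11 without DASA-58 replicate 1. The ratio of Ldha to Ldhb within a library, which no scaling between libraries can move, was 37.8 ± 3.78 with DMSO and 38.1 ± 2.83 with DASA-58 (n = 3 each, two-sided exact permutation p = 0.9). Ldha relative to Pkm was 0.523 ± 0.0203 with DMSO and 0.498 ± 0.00762 with DASA-58, without overlap (exact permutation p = 0.1, or 0.15 adjusted over the 6 ratios compared).

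The mitochondrial pyruvate carrier is a heterodimer of MPC1 and MPC2, and its genes had differences of opposite sign that were not called. Mpc2 (ENSMUSG00000026568, chr1:165460637-165481214) was at 5.77, 6.65 and 5.85 FPKM with DMSO and 5.51, 5.34 and 5.36 FPKM with DASA-58. Mpc1 (ENSMUSG00000023861, chr17:8282904-8297661) was at 1.91, 2.11 and 1.85 FPKM with DMSO and 2.27, 2.43 and 2.33 FPKM with DASA-58. Neither pair of ranges overlapped, and the log2 fold changes were -0.14 for Mpc2 (limma, adjusted p = 0.15) and 0.18 for Mpc1 (adjusted p = 0.12). The Mpc2 difference shrank without DMSO replicate 2 (-0.09), and the gene was called with voom weights (-0.18, adjusted p = 0.039). The ratio of Mpc1 to Mpc2 within a library was 0.331, 0.318 and 0.316 with DMSO and 0.412, 0.455 and 0.434 with DASA-58. All 3 ratios were higher with DASA-58, by 0.43 on the log2 scale (exact permutation p = 0.1, adjusted over the 6 ratios 0.15).

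The Mpc1 row rests on 70 to 92 fragments per library, with a counting error of 11.95% in the lowest, and its source is uncertain. A processed pseudogene, Mpc1-ps (ENSMUSG00000091498), lies on the minus strand of chromosome 12 inside Zfp839, a gene of the opposite strand, at chr12:110858565-110858894. Its 330 bases match the whole coding sequence of an annotated Mpc1 transcript with 1 difference (99.7% identical), so that sequencing fragments from either can align to both. The difference falls in the coding part of the first coding exon of Mpc1, which is printed for both with the differing base in capitals, 5′ to 3′ on the coding strand: chr17:8283891-8283961 (plus strand) for Mpc1 and chr12:110858824-110858894 (minus strand) for the copy, in GRCm38.
Mpc1: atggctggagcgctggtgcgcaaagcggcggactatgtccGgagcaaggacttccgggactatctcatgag
Mpc1-ps: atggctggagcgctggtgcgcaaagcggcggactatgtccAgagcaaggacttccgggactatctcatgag
Counted from 1 at the A of the start codon, the substitution from Mpc1 to its copy is G41A.

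Mpc1-ps, looked up after the values of its parent were seen, carried many more fragments than Mpc1 itself. It was at 76.5, 81.8 and 77.2 FPKM with DMSO and at 91.6, 101 and 98.1 FPKM with DASA-58. All DASA-58 libraries were higher, with a log2 fold change of 0.30 ± 0.044 (SE; limma, adjusted p = 0.0054), and the call was lost without variance shrinkage (adjusted p = 0.066). In fragments, the copy had 463, 509 and 464 with DMSO and 569, 609 and 614 with DASA-58, beside 73, 83 and 70 and then 89, 92 and 92 for Mpc1. Mpc1 held between 13.0% and 14.02% of their sum in every library, so the division between the rows varied little (exact permutation p = 0.3) while the sum was higher in every DASA-58 library. Summed over both rows and scaled to 1000000 fragments per library, they were 30.0 ± 1.23 with DMSO and 36.9 ± 1.82 with DASA-58, or 123% of DMSO (n = 3 each, exact permutation p = 0.1). Zfp839, whose transcripts run through the copy on the other strand, was at 4.36 ± 0.324 and 4.82 ± 0.362 FPKM, with overlap between the groups. Which locus the fragments came from was not tested.

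**Figure D2:**
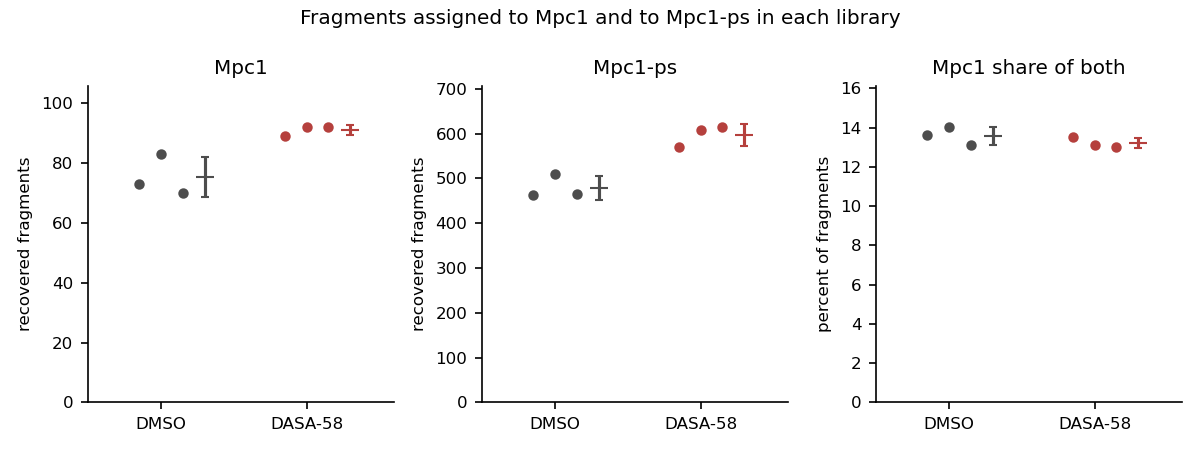
Fragments recovered for Mpc1 (left) and for its processed pseudogene Mpc1-ps (middle), and the percent of their sum that fell to Mpc1 (right), in each DMSO (grey) and DASA-58 (red) library with mean and SD. Both rows were higher with DASA-58, at 89 to 92 fragments for Mpc1 and 569 to 614 for Mpc1-ps, and the share in Mpc1 stayed between 13.0% and 14.02%.

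Other members have copies too, most of them without a row in the table. Of 40 pseudogenes at least 90% identical to a member over at least 200 bases on the same strand, 24 belong to Ldha and 9 to Pkm, and 11 have a row in the table. Of these 11, only Mpc1-ps and Gm6560 averaged 1 FPKM or more, and the highest of the Ldha copies, Ldha-ps2, averaged 0.816 FPKM. How far the rows of the members share fragments with their copies was not tested. Pdk1, Pdk3 and Pcx had 0 such copies in this annotation. Map3k15 overlaps Pdha1 and Lrfn4 overlaps Pcx on the opposite strand, with Map3k15 at 1.94 FPKM and Lrfn4 at 1.19 FPKM, and the use of strand in counting is not given in the sources used here.

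The pyruvate dehydrogenase E1 component, a heterotetramer of alpha and beta subunits, is the entry to the complex that turns pyruvate into acetyl-CoA. Pdhb (ENSMUSG00000021748, chr14:8165996-8173025), the gene of the beta subunit, was the only one of the 10 called lower. It was at 32.7, 33.6 and 32.8 FPKM with DMSO and at 27.3, 28.4 and 26.6 FPKM with DASA-58. The groups were well separated, with means of 33.0 ± 0.495 and 27.4 ± 0.954 FPKM (SD, n = 3 each), or 83.0% of DMSO. The log2 fold change was -0.26 ± 0.035 (SE; limma, adjusted p = 0.0036). The call was kept in all 18 alternative settings, with log2 fold changes from -0.29 to -0.23.

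Pdha1 (ENSMUSG00000031299, chrX:160122209-160138413), the alpha subunit gene, was at 18.2, 17.8 and 19.1 FPKM with DMSO and 17.9, 18.0 and 17.5 FPKM with DASA-58. The ranges overlapped, and the log2 fold change of -0.04 had an interval of 91.5% to 103% of DMSO on the FPKM + 1 scale (limma, adjusted p = 0.50). It was -0.02 without DMSO replicate 3, the highest library. The ratio of Pdha1 to Pdhb was 0.557, 0.530 and 0.583 with DMSO and 0.655, 0.632 and 0.661 with DASA-58. The subunit genes thus stood closer together in every DASA-58 library, by 0.22 on the log2 scale (exact permutation p = 0.1, adjusted over the 6 ratios 0.15).

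The kinases that phosphorylate and switch off the E1 component showed no difference that the spread allowed to be seen. Pdk1 (ENSMUSG00000006494, chr2:71873224-71903858), a known target of the hypoxia-inducible factor HIF-1, was at 8.50, 7.70 and 8.66 FPKM with DMSO and 8.39, 9.07 and 7.98 FPKM with DASA-58. Its interval was 92.7% to 112% of DMSO (limma, adjusted p = 0.79), and its sign turned without DMSO replicate 2 (log2 fold change -0.02) and without DASA-58 replicate 2 (-0.01). Pdk3 (ENSMUSG00000035232, chrX:93764607-93832201) was at 6.15, 5.16 and 6.22 FPKM with DMSO and 5.08, 5.69 and 5.81 FPKM with DASA-58. Its interval was 84.6% to 108% of DMSO (limma, adjusted p = 0.62), and with a library left out its log2 fold change lay between -0.14 (without DMSO replicate 2) and -0.02 (without DASA-58 replicate 1). The ratio of Pdk1 to Pdk3 was 1.42 ± 0.0611 and 1.54 ± 0.147, with overlap (exact permutation p = 0.4).

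Pcx (ENSMUSG00000024892, chr19:4510472-4621752) encodes pyruvate carboxylase, which refills the citric acid cycle with oxaloacetate, and it was the only one of the 10 called higher. It was at 3.41, 3.07 and 3.21 FPKM with DMSO and at 4.68, 4.07 and 4.20 FPKM with DASA-58. Every DASA-58 library was above every DMSO library, with means of 3.23 ± 0.172 and 4.32 ± 0.326 FPKM (SD, n = 3 each), or 134% of DMSO. The log2 fold change was 0.33 ± 0.063 (SE; limma, adjusted p = 0.016). In fragments these are 290, 268 and 271 with DMSO and 409, 343 and 369 with DASA-58, from a length fitted to the values because the annotated one did not make them whole. The call was lost without DASA-58 replicate 1, the highest library (0.28, adjusted p = 0.052), with no filter on low values (adjusted p = 0.064) and without variance shrinkage (adjusted p = 0.072). Relative to Pdha1, the other mitochondrial exit of pyruvate, Pcx stood at 0.187, 0.172 and 0.168 with DMSO and 0.262, 0.226 and 0.239 with DASA-58. The difference was 0.46 on the log2 scale, the largest of the 6 ratios (exact permutation p = 0.1, adjusted 0.15). It mostly restates the difference of Pcx itself, whose log2 ratio of group means was 0.42, beside -0.05 for Pdha1.

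**Figure D3:**
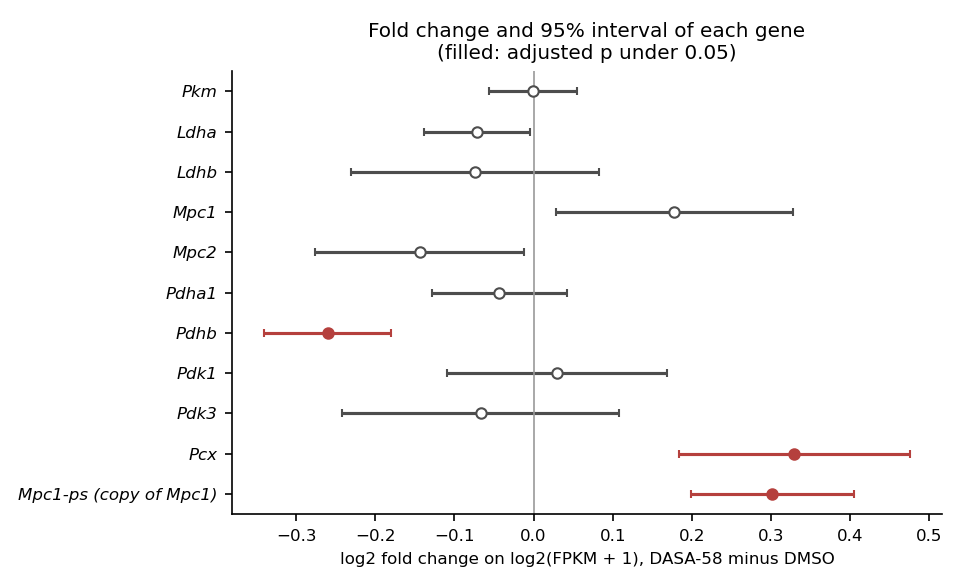
Log2 fold change on log2(FPKM + 1), DASA-58 minus DMSO, of the 10 genes and of Mpc1-ps (horizontal axis), with 95% intervals from limma; filled red points have an adjusted p under 0.05. Pdhb (-0.26) lies below 0 and Pcx (0.33) and Mpc1-ps (0.30) above it, and the interval of Pkm (-0.06 to 0.05) is the narrowest of the 11.

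**Figure D4:**
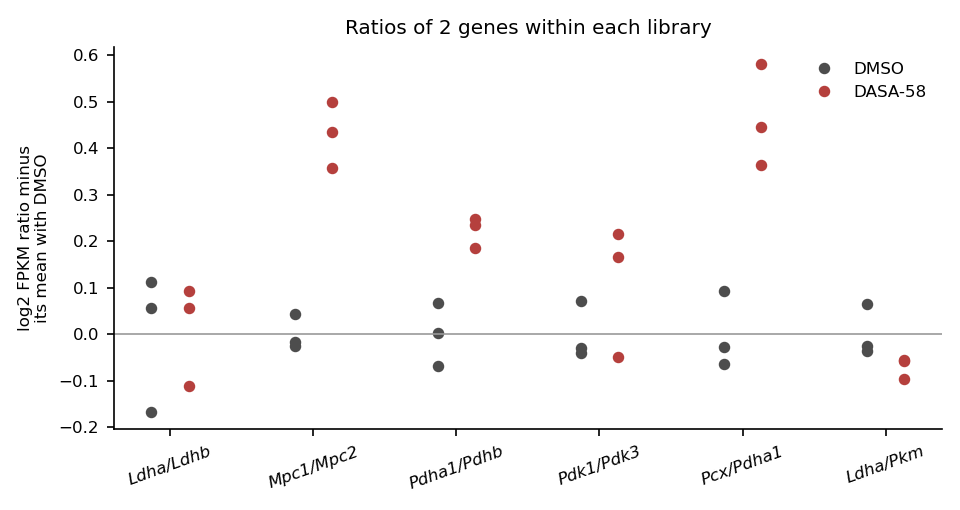
Log2 ratio of the FPKM of 2 genes within each library, minus its mean over the DMSO libraries (vertical axis), for 6 ratios; grey points are DMSO and red points DASA-58 libraries. The groups do not overlap for Mpc1/Mpc2, Pdha1/Pdhb, Pcx/Pdha1 and Ldha/Pkm, and they overlap for Ldha/Ldhb and Pdk1/Pdk3.

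Ordered by FPKM with DMSO, a level per length of all annotated exons of a gene, Pkm (575) stood above Ldha (301), Pdhb (33.0), Pdha1 (18.4), Pdk1 (8.29), Ldhb (8.003), Mpc2 (6.09), Pdk3 (5.84), Pcx (3.23) and Mpc1 (1.96). Over all 6 libraries the ranges of Pdk1 and Ldhb overlapped, as did those of Mpc2 and Pdk3, and no other neighbours did. The level of Mpc1 is that of its row alone, and with the fragments of its copy it would stand higher. Genes with long annotated exons, such as Mpc2 with 7344 bases against 5001 for Pkm, have their fragments divided by more bases than the main transcript may have.

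Around these 10 genes, 99 others were taken from 6 lists, 4 of them of enzymes, transporters and their regulators around pyruvate, 1 of regulators of Pkm splicing, and 1 of transcription factors, signalling partners and kinases linked to the 10 genes. Of the 83 tested, 12 were called lower (14.5%) and 9 higher (10.8%), beside 7.28% lower and 4.24% higher over all genes tested. In either direction 25.3% were called, beside 11.5% of all genes tested, and this difference has no test, since the lists were chosen with results of these data known. Their median log2 fold change was -0.03, the same as over all genes tested. The balance of directions turned with the scaling between libraries, to 8 lower and 12 higher with centring on the median and with the trimmed mean, and to 9 and 11 with quantile normalization. Without DMSO replicate 1, 5 were lower and 6 higher, and without DMSO replicate 2, 8 and 6. Without DASA-58 replicates 1, 2 and 3, there were 7, 6 and 6 lower and 4, 7 and 4 higher, whereas without DMSO replicate 3 there were 11 and 8. Pklr, Ldhc, Ldhal6b, Pdha2, Me3, Pck1, Mpc1l, Ppara and Ppargc1a were not analysed here.

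Of the genes for pyruvate kinase and lactate handling, 5 were tested, 1 was lower and 1 higher (40% in either direction, beside 11.5% of all genes tested). Slc16a1, the lactate and pyruvate transporter MCT1, fell from 5.24 ± 0.361 to 3.99 ± 0.358 FPKM (log2 fold change -0.32, limma, adjusted p = 0.024). Emb, an accessory protein of monocarboxylate transporters, rose from 31.5 ± 0.367 to 36.3 ± 2.09 FPKM (0.20, adjusted p = 0.028). The lactate exporter gene Slc16a3 was at 13.2 and 13.1 FPKM (adjusted p = 0.94). Slc16a1 was lost in 7 of 17 alternative settings and Emb in 8 of 18.

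Of the other genes of the pyruvate dehydrogenase complex and its regulators, 10 were tested and 2 were called (20%, beside 11.5% of all genes tested). Dlat, the E2 subunit that receives the acetyl group, fell from 18.8 ± 0.855 to 16.7 ± 0.366 FPKM (log2 fold change -0.16, limma, adjusted p = 0.041), a call lost in 13 of 18 settings, including each of those that left out a library. Pdp1, a phosphatase that reverses the action of the kinases, rose from 4.88 ± 0.266 to 6.14 ± 0.199 FPKM (0.28, adjusted p = 0.013), and its call was lost in 2 of 18. Pdhx and Pdk2 had log2 fold changes of -0.17 and -0.14 and were not called (adjusted p = 0.13 and 0.20), and Pdk4 was at 0.109 and 0.139 FPKM, under the filter.

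Of the genes for other entries and exits of pyruvate, 17 were tested, 4 were lower (23.5%, beside 7.28% of all genes tested) and 1 higher (5.88%, beside 4.24%). Without DMSO replicate 1 and without DASA-58 replicate 3, 2 were lower. Mdh2, mitochondrial malate dehydrogenase, fell from 84.3 ± 3.66 to 70.7 ± 1.40 FPKM (log2 fold change -0.25, limma, adjusted p = 0.0054). Cs, citrate synthase, which joins acetyl-CoA and oxaloacetate, fell from 60.4 ± 1.01 to 54.0 ± 0.454 FPKM (-0.16, adjusted p = 0.0097). Got1 and Got2, the cytosolic and mitochondrial aspartate aminotransferases, fell by 0.18 and 0.16 on the log2 scale (limma, adjusted p = 0.013 and 0.025). Got1 kept its call in 16 of 18 settings and Got2 in only 8. Me1, the cytosolic malic enzyme that makes pyruvate and NADPH from malate, rose from 4.10 ± 0.451 to 5.62 ± 0.229 FPKM (0.38, adjusted p = 0.013). Cs kept its call in all 18 settings, Mdh2 lost it in 1 and Me1 in 3 of 17. Mdh1, the cytosolic malate dehydrogenase, Slc25a11, a mitochondrial exchanger of oxoglutarate and malate, and Fh1, fumarase, were not called, with log2 fold changes of -0.08, -0.07 and -0.03 (adjusted p = 0.084, 0.26 and 0.55). Pck2, Slc25a1 and Gpt2 were higher in every DASA-58 library and not called either (0.13, 0.08 and 0.07, limma, adjusted p = 0.088, 0.13 and 0.50). Of the 17 genes, 11 had a negative log2 fold change and 6 a positive one.

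The 22 tested genes of glycolysis before pyruvate held 1 lower call (4.55%, beside 7.28% of all genes tested) and 4 higher calls (18.2%, beside 4.24%). The higher calls numbered from 2, as without DASA-58 replicate 1 or 3, to 7 with the trimmed mean of log ratios. Slc2a6, a hexose transporter, fell from 12.8 ± 0.249 to 9.84 ± 0.491 FPKM (log2 fold change -0.35, limma, adjusted p = 0.0028). Hk3, a hexokinase of myeloid cells, rose from 41.4 ± 0.559 to 47.6 ± 0.173 FPKM (0.20, adjusted p = 0.0038). The aldolase gene Aldoc rose from 4.22 ± 0.117 to 5.78 ± 0.356 FPKM (0.37, adjusted p = 0.0048). Aldoa, which has a second row under 1 FPKM, rose from 386 ± 7.34 to 420.2 ± 4.604 FPKM (0.12, adjusted p = 0.02). Pfkfb4, which sets the level of an activator of phosphofructokinase, rose by 0.21 (adjusted p = 0.024). The calls of Slc2a6, Hk3 and Aldoc were kept in all 18 settings, whereas Aldoa was lost in 7 and Pfkfb4 in 6. The steps just before pyruvate kinase, Pgam1 and Eno1, were not called, with log2 fold changes of 0.08 and -0.04, and fragments of Eno1 may be shared with its near-identical copy Eno1b.

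Of the regulators of Pkm splicing, 8 were tested and 2 were called (25.0%, beside 11.5% of all genes tested). Hnrnpa1, which represses the PKM1 exon, fell from 345.9 ± 3.17 to 320.1 ± 3.28 FPKM (log2 fold change -0.11, limma, adjusted p = 0.019), and Ptbp3, a paralog of the splicing repressor Ptbp1, rose from 33.2 ± 0.989 to 36.9 ± 0.729 FPKM (0.15, adjusted p = 0.029). Each call was lost in 10 of 18 settings. Ptbp1 and Srsf3 had log2 fold changes of -0.11 and -0.06 (adjusted p = 0.075 and 0.26).

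Of the transcription factors, signalling partners and kinases linked to Pkm, Ldha, Pdk and Mpc genes, 21 were tested, 4 were lower (19.0%, beside 7.28% of all genes tested) and 1 higher (4.76%, beside 4.24%). The lower calls fell to 2 when DMSO replicate 1 or 2 or DASA-58 replicate 2 or 3 was left out. Myc, a transcription factor of many glycolytic genes, fell from 26.4 ± 1.77 to 16.9 ± 1.31 FPKM (log2 fold change -0.62, limma, adjusted p = 0.0012). Src, a tyrosine kinase that osteoclasts need for bone resorption, fell from 22.7 ± 0.812 to 15.2 ± 0.627 FPKM (-0.55, adjusted p = 0.00034). Ppargc1b, a coactivator of mitochondrial genes that acts in osteoclasts, fell from 2.65 ± 0.0832 to 1.91 ± 0.159 FPKM (-0.33, adjusted p = 0.018), and the prolyl hydroxylase gene Egln2 fell by 0.15 (adjusted p = 0.029). Lyn, a Src family kinase of myeloid cells, rose from 40.0 ± 1.30 to 45.8 ± 0.688 FPKM (0.19, adjusted p = 0.011). Hif1a was at 17.9 and 20.2 FPKM and was not called (0.17, adjusted p = 0.079). Myc and Src kept their calls in all 18 settings, while Ppargc1b lost it in 6 of 17, Egln2 in 11 of 18 and Lyn in 1. Src is abundant in osteoclasts, whose markers were lower in the same libraries, and the part of that shift in its fall was not tested.

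**Figure D5:**
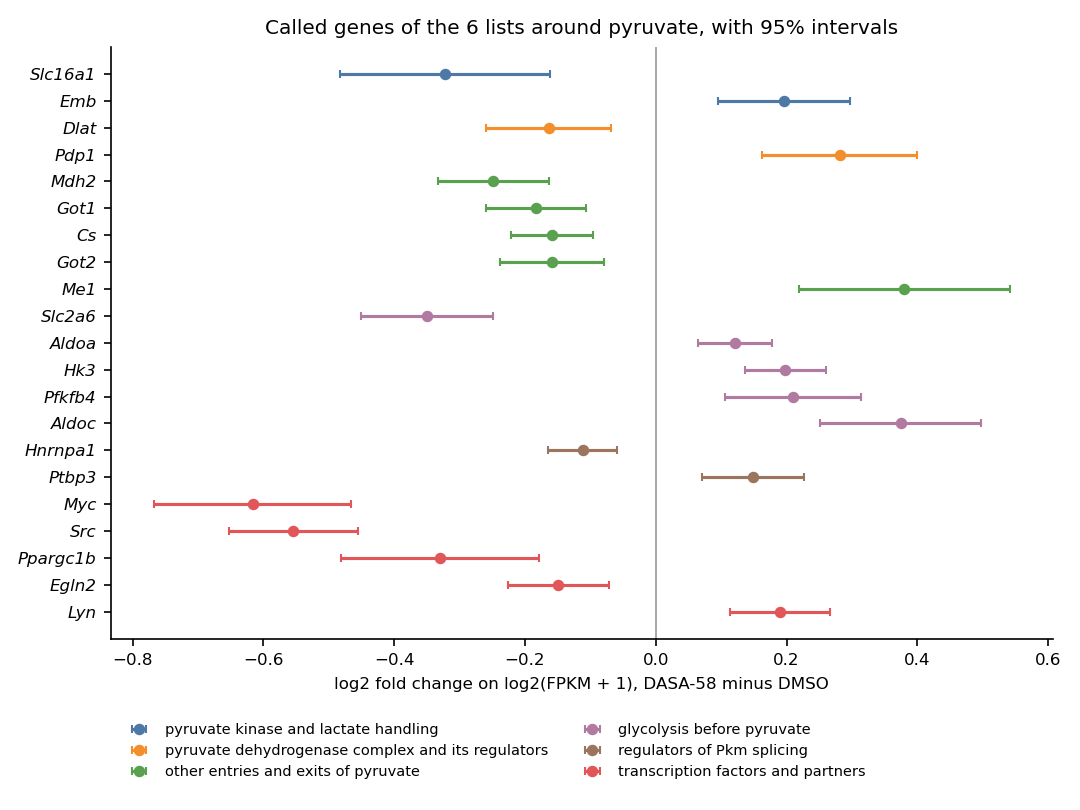
Log2 fold change on log2(FPKM + 1), DASA-58 minus DMSO (horizontal axis), with 95% intervals from limma, for the 21 called genes of the 6 lists, coloured by list. The 12 lower genes run from -0.62 (Myc) to -0.11 (Hnrnpa1) and the 9 higher genes from 0.12 (Aldoa) to 0.38 (Me1).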

How the data were processed

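RNA-seq of 6 BMM libraries was analysed from the FPKM table the authors deposited, normalized by them to gene length and library total, with 23504 genes by Ensembl identifier, with 0 value columns left unmapped. The submitters' processing notes name HISAT2 2.1.0, HTSeq 0.6.0 and mm8 without roles. Symbols (23455 matched, 49 not), coordinates, lengths and transcripts came from GENCODE M21 (GRCm38), and no coordinate was read from the table. The depth of a library was recovered from genes annotated with a single exon. With it, FPKM times annotated length gave whole fragments (within 0.05) for 91.3% of genes. Recovered fragments served for precision, the Mpc1 and Mpc1-ps sums and the voom weights. The voom weights also used genes whose fragments were not whole. No batch is given in the labels. Groups were compared with limma 3.58.1 (R 4.3.3) on log2(FPKM + 1), with lmFit and eBayes with a trend, without the replicate number as a block. Ratios and sums were tested with SciPy 1.17.1 (two-sided exact permutation). The fit was tested on simulated data with changes larger than those of Pdhb and Pcx, so that test does not show how well changes of their size are recovered. Figures were drawn with matplotlib 3.10.9.

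The 10 genes, the lists and the tests were chosen with earlier results of these data known. The rule for named genes took all 10, the called genes of each list (at most 6), and the 5 genes most correlated with Pkm. Named outside it, after their values were seen, were Mpc1-ps, Gm6560, Gm49759, Zfp839, Ldha-ps2, Map3k15, Lrfn4, Mdh1, Slc25a11, Fh1, Pck2, Slc25a1, Gpt2, Slc16a3, Pdhx, Pdk2, Pdk4, Pgam1, Eno1, Eno1b, Ptbp1, Srsf3 and Hif1a. Alternatives were pseudocounts of 0.1 and 5, no filter, a mean of at least 5 FPKM, 4 scalings, no trend, no shrinkage, the replicate block, each library left out, and voom weights on recovered fragments, the last added after seeing the data.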

Additional observations from a re-analysis of the deposited data

How the results depend on the processing

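Pdhb was called lower in all 18 settings, and no setting moved Mpc1, Ldhb, Pdha1, Pdk1 or Pdk3 past the threshold. The count called lower rose to 2 with equal library totals (Ldha added, log2 fold change -0.0888) and to 3 with voom weights (Ldha -0.0816 and Mpc2 -0.18 added). The count called higher fell to 0 with no filter on low values and without variance shrinkage, where Pcx kept its 0.33 but not its call, and with a mean of at least 5 FPKM, where Pcx and Mpc1 were not tested. Leaving out each library in turn gave 0 to 1 called higher and 1 called lower, with Pcx between 0.28 and 0.36, Pkm between -0.0148 and 0.0066, and Pdk1 between -0.0167 and 0.0683. Pkm reversed to 0.0446 with quantile normalization, to 0.026 after median centring and to 0.0241 with a trimmed mean of log ratios. In the same settings Ldha shrank to -0.0149, -0.0443 and -0.0463. In the 6 lists, calls numbered 12 lower and 9 higher as reported, 8 and 12 after median centring and with the trimmed mean, 9 and 11 with quantile normalization, 6 and 4 with no filter, 7 and 2 without shrinkage, 17 and 11 with voom weights, and between 5 and 11 lower and 4 and 8 higher with a library left out. What in each setting moved these counts was not tested.

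Over all genes, 314 lower and 227 higher genes were called without shrinkage, 348 and 243 with no filter, and 1510 and 660 with voom weights. Centring gave 504 and 597, the trimmed mean 523 and 594, and no trend 515 and 341. Leaving out a library gave 387 to 603 lower and 272 to 375 higher genes, and 4 of the 6 moved both counts by over 1.5 times: DMSO replicate 1 (387 and 282) and DASA-58 replicates 1 (413 and 272), 2 (467 and 296) and 3 (400 and 276). With the replicate number as a block (the replicate block), 579 were lower and 378 higher, of the 10 genes 1 was lower and 1 higher, as without it, and 8 and 8 in the 6 lists. Deviations from the group means had correlations of -0.02 to 0.02 between same-numbered libraries and of -0.05 to 0.06 between differently numbered ones. With 3 libraries per group this cannot decide whether the numbers pair the samples.

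Depth limits Mpc1 most (70 fragments in its lowest library), then Ldhb and Pdk3. Isoforms of Pkm were not separated. Counting errors do not include library preparation.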
